A study of Mus musculus with 19 samples.

Results

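The 9 genes described here encode the TGF-beta ligands (Tgfb1, Tgfb2, Tgfb3), their receptors (Tgfbr1, Tgfbr2, Tgfbr3), the beta subunits of activin (Inhba, Inhbb) and the activin-binding protein follistatin (Fst). They were chosen by symbol and matched by Ensembl identifier to the rows of the deposited tables, which list 35274 genes. Each of the 9 passed the filter on low counts that left 16387 genes for the tests. RNA was measured in hepatocytes of mice of the genotype OPN-CreERT2;Rosa26R-mT/mG, which all groups share. In such mice the osteopontin promoter drives a Cre recombinase that tamoxifen activates, and Cre switches the reporter of a cell and its descendants from tdTomato (red) to green fluorescence. GREEN samples were green hepatocytes from livers with chronic injury, which the labels call DR-derived without spelling out that term. RED samples were native, red hepatocytes from such livers. CTL samples were native hepatocytes taken from livers that the labels call healthy. Each group had 5 samples. In each, 2 came from a first experiment with poly(A)-selected libraries and 3 came from a second experiment with libraries depleted of ribosomal RNA. The labels used here give neither the agent of injury nor the strain, sex or age, and they do not say which samples came from 1 animal. Library codes of GREEN and RED samples carry a tag that the labels do not explain and that CTL codes lack.

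TGF-beta ligands are made as latent dimers that stay bound to their propeptide and to the matrix until integrins, thrombospondin or proteases release them. The released ligand binds TGFBR2, which recruits and phosphorylates TGFBR1, and TGFBR1 phosphorylates SMAD2 and SMAD3. TGFBR3, also called betaglycan, presents ligand to these receptors and is needed in particular for TGF-beta 2. Activins are dimers of inhibin beta subunits that signal through their own receptors to the same SMAD proteins, and follistatin traps them. In the liver, TGF-beta is known as a signal that halts hepatocyte division and makes stellate cells produce collagen, and activin A, the dimer of the Inhba product, likewise restrains hepatocyte growth.

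Of the 9 genes, the ligand genes that rose in the samples from injured liver were Tgfb1, Tgfb2, Tgfb3 and Inhbb. RefSeq held no promoter stretch for Tgfb3. Tgfb1, Tgfb2 and Inhbb are therefore compared here with Inhba, which did not pass the test in those samples. Promoter sequences are shown so that the stretches before their starts can be read side by side. Each is the 250 bases before the start site in RefSeq, build GRCm38.p6, from 5′ to 3′ on the gene's own strand. The stretches lie at chr7:25686752-25687001 on the plus strand for Tgfb1, at chr1:186705990-186706239 on the minus strand for Tgfb2, at chr1:119422249-119422498 on the minus strand for Inhbb and at chr13:16011601-16011850 on the plus strand for Inhba. Capitals mark matches to the motifs that were searched.
Tgfb1: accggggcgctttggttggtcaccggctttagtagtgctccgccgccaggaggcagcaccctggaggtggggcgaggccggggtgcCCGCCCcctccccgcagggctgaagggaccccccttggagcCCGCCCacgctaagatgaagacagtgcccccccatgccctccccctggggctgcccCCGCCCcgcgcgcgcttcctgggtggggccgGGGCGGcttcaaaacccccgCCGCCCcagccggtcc
Tgfb2: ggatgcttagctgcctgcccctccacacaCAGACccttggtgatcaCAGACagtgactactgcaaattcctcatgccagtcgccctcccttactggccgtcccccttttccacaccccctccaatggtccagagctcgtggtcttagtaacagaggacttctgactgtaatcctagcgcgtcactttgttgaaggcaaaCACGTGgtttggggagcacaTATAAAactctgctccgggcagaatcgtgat
Inhbb: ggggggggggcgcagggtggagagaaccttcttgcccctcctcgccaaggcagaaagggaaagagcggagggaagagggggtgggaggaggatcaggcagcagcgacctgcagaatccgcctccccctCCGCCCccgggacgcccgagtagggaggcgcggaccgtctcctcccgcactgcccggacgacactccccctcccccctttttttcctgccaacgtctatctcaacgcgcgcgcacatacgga
Inhba: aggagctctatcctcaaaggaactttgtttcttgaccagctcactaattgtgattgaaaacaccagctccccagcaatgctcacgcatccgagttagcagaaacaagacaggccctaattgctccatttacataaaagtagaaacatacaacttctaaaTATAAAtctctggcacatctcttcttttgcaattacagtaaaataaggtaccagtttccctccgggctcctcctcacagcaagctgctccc
The 4 stretches differ in base composition, with 75.2% G and C for Tgfb1, 53.6% for Tgfb2, 68.0% for Inhbb and 43.2% for Inhba, beside a median of 52.4% over the 32851 stretches of the same length in the table. Tgfb1 held 5 GC boxes (GGGCGG) and Inhbb 1, and neither held a TATA box (TATAAA). Tgfb2 held a TATA box whose first letter is at position -31, counted back from the start site, an E-box (CACGTG) at position -51 and 2 copies of CAGAC, the short element that SMAD3 is known to bind. Inhba held a TATA box at position -91. Motifs were searched on both strands and none of their letter strings contains another. A GC box was present in 32.7% of all stretches, a TATA box in 12.4%, the E-box in 6.02% and CAGAC in 42.2%. Matches to AP-1 (TGANTCA), CRE (TGACGTCA), TEAD (GGAATG) and the palindrome GTCTAGAC were searched as well and were not found in the 4 stretches. They occurred in 6.75%, 1.55%, 12.6% and 0.167% of all stretches, in that order. A match is a string of letters and not a shown binding site.

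Libraries held 22442607 to 34216824 estimated counts in experiment 1 and 38061859 to 44177627 in experiment 2. Levels are CPM, estimated counts over the library total, scaled with edgeR's TMM factors. Every fold change is a log2 value of the group named first over the other, from edgeR's quasi-likelihood test with group and experiment as terms. Adjusted p-values are over all 16387 genes by Benjamini-Hochberg, with a threshold of 0.05. The median log2 fold change over all genes was -0.02 for GREEN versus RED, 0.11 for GREEN versus CTL and 0.05 for RED versus CTL. It was 0.42, 0.83 and 0.33, in the same order, when libraries were scaled by their totals. That scaling also changed the split of calls, to 4289 higher and 40 lower for GREEN versus RED (1586 and 528 with TMM), 10077 and 467 for GREEN versus CTL (4839 and 3051) and 2812 and 95 for RED versus CTL (2326 and 326). The libraries GREEN 3 and GREEN 4 carry the same code number in the labels (4), so they may share a source. Member results that change their call without either of them are given without it, and so are most list counts that change. The labelled cell type was present in each group: Alb, the albumin gene of hepatocytes, ranged from 25220 to 55740 CPM in GREEN, from 46150 to 78580 in RED and from 65370 to 133600 in CTL.

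Tgfb1, Tgfb2, Tgfb3, Tgfbr2, Tgfbr3 and Inhbb were higher in both kinds of hepatocyte samples from injured liver than in those from healthy liver. Tgfb2 and Tgfb3 were higher again in the DR-derived samples than in the native samples of injured liver. Stellate, endothelial and macrophage markers were also higher in RED versus CTL (medians 3.79, 3.80 and 3.24), and bile duct markers in GREEN versus RED (6.65). In GREEN versus CTL the medians of these lists were 4.51, 2.93, 2.53 and 8.23, in the same order. The part of other cells in these bulk levels was not tested. Tgfbr1, Inhba and Fst passed the test in no comparison. In counts, 2 of 9 genes were higher in GREEN than in RED, where 9.68% of all genes were called higher and 3.22% lower. In GREEN versus CTL 6 of 9 were higher, beside 29.5% of all genes higher and 18.6% lower, and in RED versus CTL 6 of 9 were higher, beside 14.2% higher and 1.99% lower. No member was lower in any of these fits. The median of the 9 fold changes was 0.08 for GREEN versus RED, 2.25 for GREEN versus CTL and 2.04 for RED versus CTL, against the medians of all genes given above. GREEN versus CTL and RED versus CTL share their CTL samples, so they are not independent of each other.

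**Figure D1:**
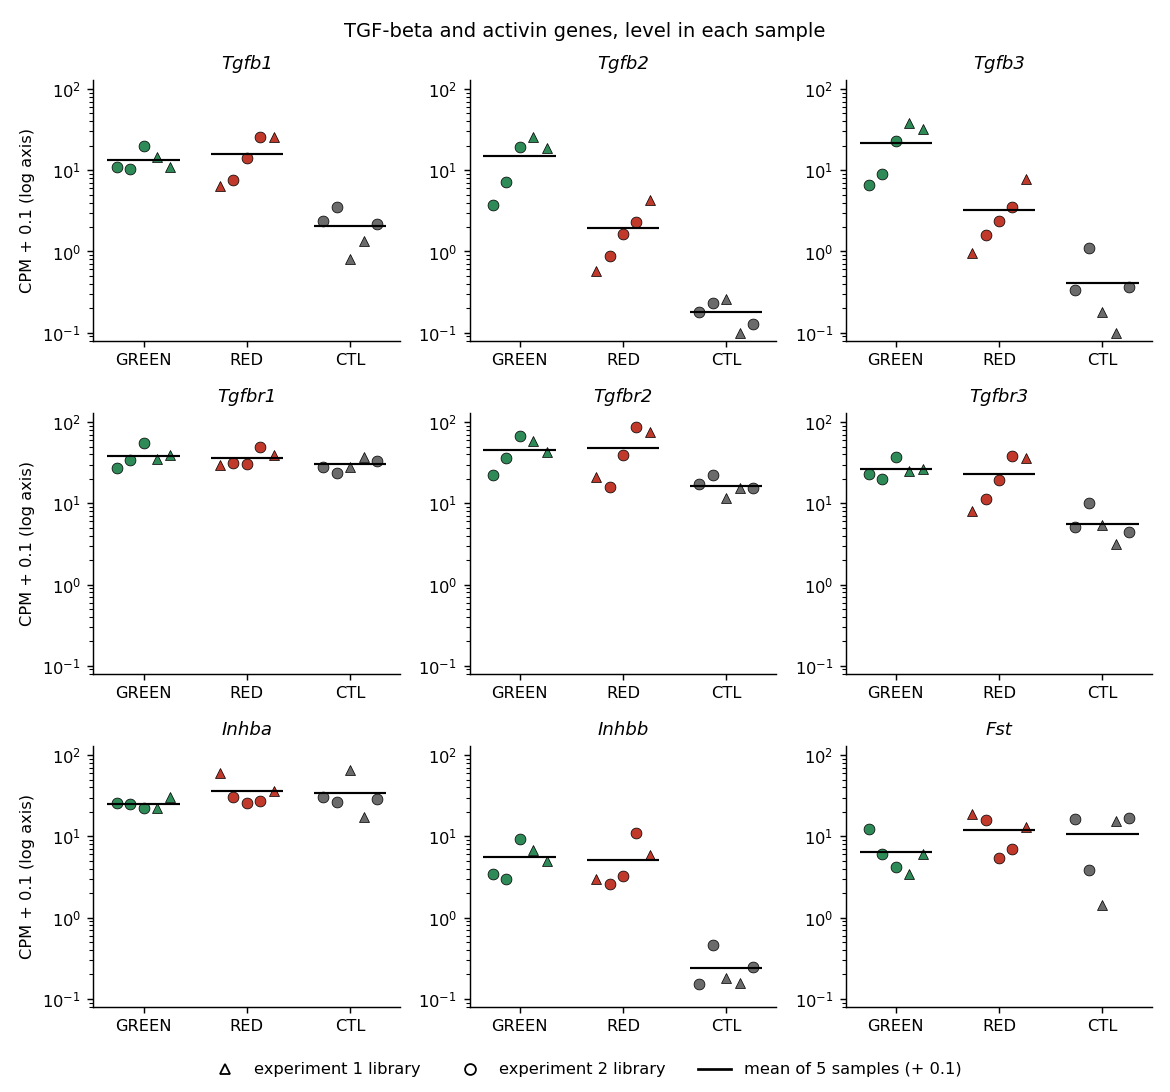
Level of each gene in each of the 15 samples, as CPM plus 0.1 on a log axis, with samples 1 to 5 from left to right within GREEN, RED and CTL, triangles for experiment 1, circles for experiment 2 and a line at the mean. Tgfb2 and Tgfb3 descend over GREEN, RED and CTL, Tgfb1 and Inhbb are low in CTL and overlap between GREEN and RED, and Tgfbr1 and Inhba overlap between the 3 groups.

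Tgfb2 (ENSMUSG00000039239.14, chr1:186622792-186705989, minus strand, GRCm38), the ligand that depends most on betaglycan, had the largest fold change of the 9 genes in GREEN versus CTL and in GREEN versus RED. It stood at 3.62, 6.98, 19.3, 25.2 and 18.5 CPM in GREEN 1 to 5, at 0.467, 0.779, 1.53, 2.17 and 4.2 CPM in RED 1 to 5, and at 0.0780, 0.131, 0.158, 0 and 0.0295 CPM in CTL 1 to 5. GREEN 1, the lowest GREEN sample, was below RED 5, the highest RED sample, and no GREEN or RED sample reached the CTL range. The log2 fold change was 2.94 for GREEN versus RED (standard error 0.59, adjusted p = 0.0063), and 5 of 5 GREEN samples were above the RED mean. Without GREEN 3 it was 2.51 (adjusted p = 0.038) and without GREEN 4 2.75 (adjusted p = 0.026). It was 7.27 for GREEN versus CTL (standard error 0.79, adjusted p = 2.0e-05) and 4.33 for RED versus CTL (standard error 0.74, adjusted p = 0.0011). The CTL level rests on 13 counts over 5 libraries, and the library of CTL 4, with 0 counts, allows up to 0.171 CPM. The size of the folds against CTL is therefore imprecise.

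Tgfb3 (ENSMUSG00000021253.7, chr12:86056745-86079041, minus strand), the ligand known for its role in epithelial fusion during palate formation, followed the same order. It stood at 6.51, 9.00, 22.7, 37.6 and 31.6 CPM in GREEN 1 to 5, at 0.849, 1.51, 2.30, 3.42 and 7.74 CPM in RED 1 to 5, and at 0.234, 0.993, 0.0787, 0 and 0.266 CPM in CTL 1 to 5. GREEN 1 was again below RED 5, and RED 1 was below CTL 2, so both neighbouring pairs of groups overlapped in 1 sample, while GREEN and CTL did not overlap. It had a log2 fold change of 2.71 for GREEN versus RED (standard error 0.73, adjusted p = 0.029), 5.74 for GREEN versus CTL (standard error 0.88, adjusted p = 1.9e-04) and 3.03 for RED versus CTL (standard error 0.81, adjusted p = 0.018). The GREEN versus RED call ended when GREEN 3, GREEN 4, GREEN 5, RED 1, RED 2, RED 3 or RED 4 was left out. Those fits gave log2 fold changes of 2.33 to 2.73 and adjusted p of 0.051 to 0.091. The RED versus CTL call ended without CTL 3 (2.61, adjusted p = 0.052) and without RED 4 (2.84, adjusted p = 0.051).

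Tgfb1 (ENSMUSG00000002603.15, chr7:25687002-25705077, plus strand), the ligand most studied in liver fibrosis, was high in both groups from injured liver. It stood at 10.8, 10.4, 19.8, 14.6 and 10.7 CPM in GREEN 1 to 5, at 6.36, 7.48, 14.2, 25.9 and 25.7 CPM in RED 1 to 5, and at 2.26, 3.42, 0.709, 1.25 and 2.07 CPM in CTL 1 to 5. The GREEN samples lay inside the range of the RED samples, and every sample of either group was above the highest CTL sample. Its log2 fold change was 2.82 for GREEN versus CTL (standard error 0.46, adjusted p = 3.1e-04) and 3.10 for RED versus CTL (standard error 0.47, adjusted p = 5.8e-04). Between GREEN and RED it was -0.27 (standard error 0.42, adjusted p = 0.70) and 0.17 with library totals, which is -0.24 relative to the median of all genes at that scaling.

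**Figure D2:**
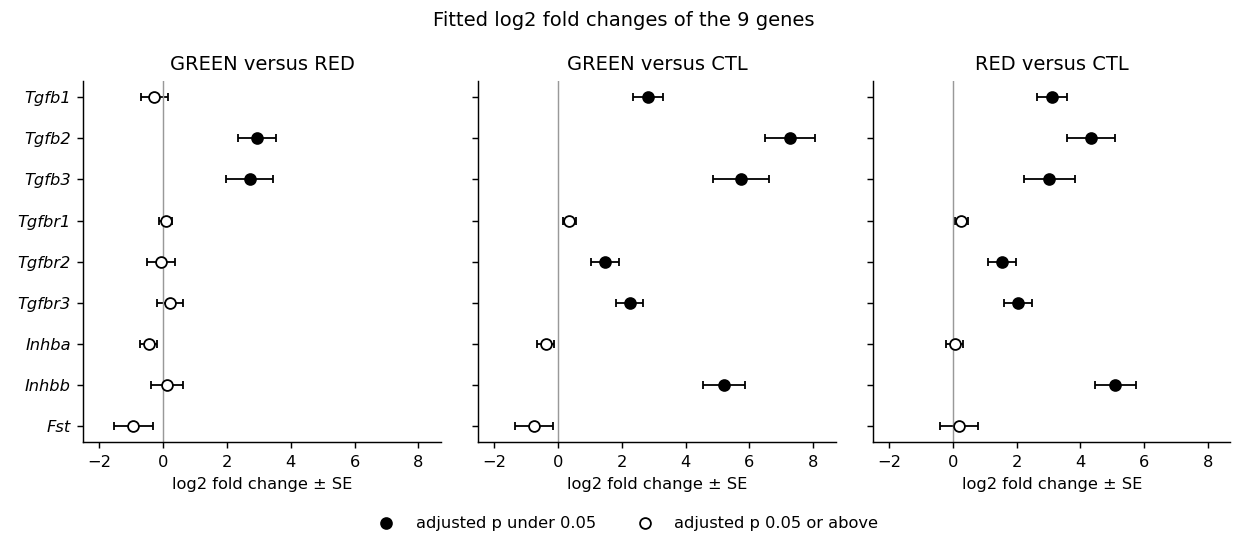
Fitted log2 fold change with its standard error (horizontal bar) of each of the 9 genes in GREEN versus RED, GREEN versus CTL and RED versus CTL, 5 samples per group, with filled points for an adjusted p under 0.05. Tgfb2 (2.94) and Tgfb3 (2.71) stand apart from 0 in GREEN versus RED, and Tgfbr1, Inhba and Fst have open points in each panel.

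The balance of the 3 TGF-beta ligands differed between the GREEN and RED samples. To compare levels between genes, CPM was divided by the length of the merged exons in kilobases, and each ligand was expressed as a percent of the 3 ligands' sum. Tgfb1 made up 45.5, 34.7, 28.0, 15.8 and 14.5% of the sum in GREEN 1 to 5, 79.2, 71.9, 74.9, 78.7 and 62.9% in RED 1 to 5, and 84.4, 68.2, 73.6, 100 and 83.1% in CTL 1 to 5. Every GREEN sample was thus below every RED and every CTL sample, while RED and CTL overlapped. Tgfb3 made up 41.1 to 63.7% in GREEN, 15.5 to 28.2% in RED and 0.0 to 29.5% in CTL. Tgfb2 made up 13.3 to 23.9% in GREEN, 5.06 to 8.94% in RED and 0.0 to 14.2% in CTL. Tgfb3 was the most abundant ligand transcript per kilobase in GREEN 2, 3, 4 and 5, and Tgfb1 in GREEN 1 and in every RED and CTL sample. The summed ligand level was 4.68 to 18.4 CPM per kb in GREEN, 1.59 to 8.11 in RED and 0.191 to 0.995 in CTL. The percentages rest on 1010 to 3924 counts a library in GREEN, 181 to 1317 in RED and 22 to 174 in CTL. The percentages are combinations of the levels above and were not tested separately.

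**Figure D3:**
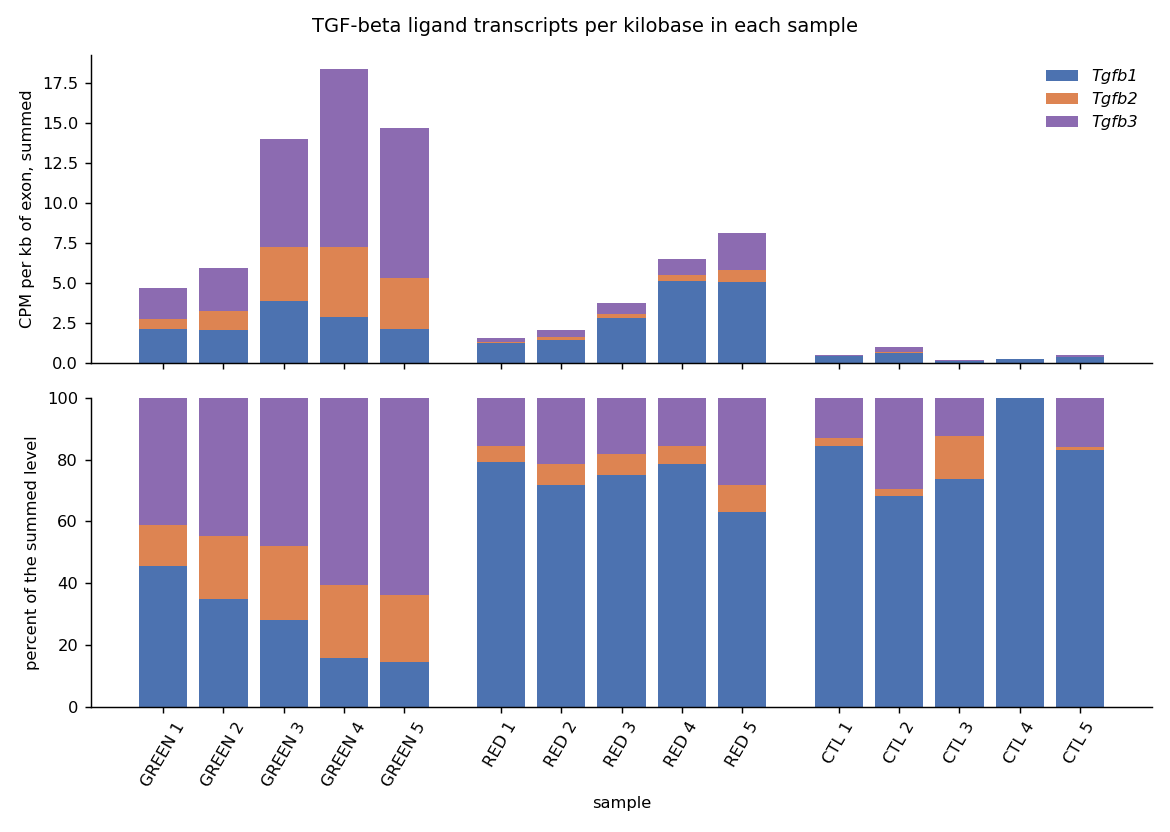
TGF-beta ligand transcripts in each sample as stacked bars, in CPM per kilobase of exon (top) and as percent of their sum (bottom), for GREEN 1 to 5, RED 1 to 5 and CTL 1 to 5. Tgfb1 takes 14.5 to 45.5% of the bar in GREEN, 62.9 to 79.2% in RED and 68.2 to 100% in CTL.

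The receptors moved less than the ligands. Tgfbr3 (ENSMUSG00000029287.14, chr5:107106570-107289629, minus strand), the co-receptor betaglycan, stood at 22.5, 20.0, 36.8, 24.8 and 26.6 CPM in GREEN 1 to 5, at 8.02, 11.1, 19.4, 38.5 and 36.1 CPM in RED 1 to 5, and at 5.01, 10.0, 5.28, 3.02 and 4.37 CPM in CTL 1 to 5. GREEN and CTL did not overlap, whereas RED 1 was below CTL 2. For betaglycan the log2 fold change was 2.25 for GREEN versus CTL (standard error 0.43, adjusted p = 9.0e-04), 2.04 for RED versus CTL (standard error 0.43, adjusted p = 0.0039) and 0.21 for GREEN versus RED (standard error 0.41, adjusted p = 0.76).

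Tgfbr2 (ENSMUSG00000032440.13, chr9:116084293-116175360, minus strand), the receptor that binds the ligand first, stood at 22.2, 36.0, 68.1, 58.3 and 42.9 CPM in GREEN 1 to 5, at 20.9, 15.8, 39.4, 86.0 and 75.4 CPM in RED 1 to 5, and at 17.2, 21.9, 11.5, 15.5 and 15.5 CPM in CTL 1 to 5. RED 1 and RED 2 lay within the CTL range, and RED 3, 4 and 5 lay above it. GREEN 1 exceeded the highest CTL sample by a small margin. Tgfbr2 had a log2 fold change of 1.48 for GREEN versus CTL (standard error 0.44, adjusted p = 0.014), and this call ended without CTL 3 (1.21, adjusted p = 0.056). It was 1.54 for RED versus CTL (standard error 0.44, adjusted p = 0.027). This call ended when CTL 1, CTL 3, CTL 4, CTL 5, RED 4 or RED 5 was left out, with log2 fold changes of 1.11 to 1.51 and adjusted p of 0.061 to 0.13. It also ended with limma-voom (1.23, adjusted p = 0.12) and with the GREEN libraries left out of the fit (1.52, adjusted p = 0.059). For GREEN versus RED it was -0.06 (standard error 0.43, adjusted p = 0.94), a value that was 0.40 with library totals and -0.02 relative to the median there.

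Tgfbr1 (ENSMUSG00000007613.15, chr4:47353222-47414931, plus strand), the kinase that phosphorylates SMAD2 and SMAD3, overlapped between the 3 groups. It ranged from 27.2 to 55.5 CPM in GREEN, from 29.2 to 49.3 CPM in RED and from 23.3 to 36.8 CPM in CTL. Its log2 fold change was 0.08 for GREEN versus RED (standard error 0.20, adjusted p = 0.82), 0.35 for GREEN versus CTL (standard error 0.20, adjusted p = 0.17) and 0.27 for RED versus CTL (standard error 0.20, adjusted p = 0.45). With library totals GREEN versus CTL passed (1.11, adjusted p = 0.0010), which is 0.28 above the median of all genes at that scaling. Per kilobase, Tgfbr1 averaged 5.84 CPM per kb in GREEN, 5.52 in RED and 4.58 in CTL, Tgfbr2 averaged 5.56 in GREEN, 5.80 in RED and 2.00 in CTL, and Tgfbr3 averaged 4.00 in GREEN, 3.46 in RED and 0.846 in CTL.

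The activin subunits differed in behaviour. Inhbb (ENSMUSG00000037035.5, chr1:119415465-119422248, minus strand), the subunit of activin B, stood at 3.31, 2.92, 9.27, 6.70 and 4.87 CPM in GREEN 1 to 5, at 2.84, 2.49, 3.11, 10.9 and 5.88 CPM in RED 1 to 5, and at 0.0520, 0.366, 0.0787, 0.0570 and 0.148 CPM in CTL 1 to 5. GREEN and RED overlapped over nearly their whole range, and both lay above the CTL samples without overlap. For this subunit the log2 fold change was 5.21 for GREEN versus CTL (standard error 0.65, adjusted p = 4.7e-05) and 5.09 for RED versus CTL (standard error 0.64, adjusted p = 3.9e-04), with 24 counts over the 5 CTL libraries. It was 0.13 for GREEN versus RED (standard error 0.50, adjusted p = 0.89) and -0.09 there within experiment 2.

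Inhba (ENSMUSG00000041324.14, chr13:16011851-16031621, plus strand), the subunit of activin A, stood at 25.8, 24.9, 22.1, 22.3 and 30.5 CPM in GREEN 1 to 5, at 59.5, 30.0, 25.8, 26.9 and 36.0 CPM in RED 1 to 5, and at 30.5, 26.5, 65.9, 17.4 and 28.4 CPM in CTL 1 to 5. RED 1 and CTL 3, both libraries of experiment 1, were the highest of their groups. The log2 fold change was -0.45 for GREEN versus RED (standard error 0.27, adjusted p = 0.28), -0.39 for GREEN versus CTL (standard error 0.27, adjusted p = 0.25) and 0.06 for RED versus CTL (standard error 0.27, adjusted p = 0.93). GREEN versus CTL passed without CTL 4, the lowest sample (-0.62, adjusted p = 0.027), and was 0.27 with library totals. Inhba remained the more abundant subunit per kilobase: Inhbb made up 15 to 38.6% of the sum of both subunits in GREEN, 6.69 to 37.8% in RED and 0.179 to 2.03% in CTL.

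Fst (ENSMUSG00000021765.8, chr13:114452290-114458951, minus strand), the activin trap, varied more among the samples of a group than between groups. It stood at 12.1, 5.98, 4.10, 3.35 and 6.00 CPM in GREEN 1 to 5, at 18.6, 15.9, 5.27, 6.83 and 12.8 CPM in RED 1 to 5, and at 16.1, 3.79, 1.34, 15.3 and 16.7 CPM in CTL 1 to 5. CTL 3 was below every GREEN and RED sample, and CTL 2 was below every RED sample, while the other CTL samples were above every GREEN sample. Fst had a log2 fold change of -0.94 for GREEN versus RED (standard error 0.61, adjusted p = 0.31), -0.76 for GREEN versus CTL (standard error 0.60, adjusted p = 0.32) and 0.19 for RED versus CTL (standard error 0.60, adjusted p = 0.89). Ddx3y, a gene of the Y chromosome, separated the 15 libraries into 7 with 48.4 to 88.1 CPM and 8 with 0.0394 to 0.415 CPM. CTL 1, CTL 4 and CTL 5, the CTL samples with more Fst, were in the high set, and CTL 2 and CTL 3 in the low one. In GREEN the order was the other way round: GREEN 3 and GREEN 4, the high set there, had the lowest Fst. In RED the high set, RED 4 and RED 5, had 6.83 and 12.8 CPM of Fst, and the low set had 18.6, 15.9 and 5.27 CPM. The part of this split in the Fst levels was not tested within groups, and with a term for it in the fit Fst passed in no comparison.

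The experiments gave the same directions for the 6 genes that rose against CTL, with unequal strength. They are not independent of each other, because RED 2, RED 3, RED 4 and CTL 5 had a library in each and entered both fits. Counting every library of an experiment, experiment 1 alone (2 GREEN, 5 RED and 3 CTL libraries) called 2 of 9 genes higher in GREEN versus RED, beside 19.4% of all genes. It called 6 of 9 in GREEN versus CTL, beside 32.0%, and 5 of 9 in RED versus CTL, beside 11.8%. Experiment 2 alone (3 libraries per group) called 0 of 9 in GREEN versus RED, beside 0.452% of all genes. It called 5 of 9 in GREEN versus CTL, beside 15.8%, and 3 of 9 in RED versus CTL, beside 6.73%. In the experiment 2 fit of GREEN versus RED by edgeR, 2 members had an unadjusted p under 0.05, namely Tgfb2 and Tgfb3. Tgfb2 had a log2 fold change of 3.65 in experiment 1 and 2.74 in experiment 2 for GREEN versus RED (adjusted p = 0.011 and 0.12), and Tgfb3 had 3.59 and 2.40 (adjusted p = 0.0069 and 0.17). Against CTL, Tgfb3 differed most between the experiments, with 8.74 and 4.67 in GREEN versus CTL and 5.15 and 2.26 in RED versus CTL. The interaction of group and experiment, tested with edgeR, was past the threshold for 0 of 9 members in each comparison. Of all 16387 genes it was past for 1 in RED versus CTL, 0 in GREEN versus RED and 0 in GREEN versus CTL. With so few calls, the count of members does not show that the experiments were alike. At an unadjusted threshold of 0.05 the interaction held 0 members in GREEN versus RED and 1 in each comparison with CTL, namely Tgfb3. That interaction was fitted over the 15 libraries, 1 per sample, whereas the fits of a single experiment used every library of it, so its values are not the differences of those above. For Tgfb3 it was -4.80 (experiment 2 less experiment 1) in GREEN versus CTL (adjusted p = 0.32) and -4.20 in RED versus CTL (adjusted p = 1 by edgeR). For Tgfbr2 in RED versus CTL neither experiment passed alone (1.78 with adjusted p = 0.072 in experiment 1, 1.37 with adjusted p = 0.24 in experiment 2). For Tgfbr3 in that comparison experiment 1 gave 2.30 (adjusted p = 0.029) and experiment 2 gave 1.83 (adjusted p = 0.065). Tgfbr2 in GREEN versus CTL gave 1.91 (adjusted p = 0.035) and 1.21 (adjusted p = 0.18).

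RED 2, RED 3, RED 4 and CTL 5 had a library in each experiment, so the experiments can be compared within a sample. The level of Tgfb1 was 1.35 to 1.91 times as high in the ribosomal-depletion library as in the poly(A) library, and that of Tgfbr3 1.37 to 1.65 times. Tgfb3 had ratios of 1.2 to 2.54. Tgfb2 had ratios of 1.03 to 3.93 in the RED samples, the highest from 30 against 4 counts in RED 2, and 1 against 0 counts in CTL 5. Tgfbr1 (1.03 to 1.25), Tgfbr2 (1.07 to 1.22), Inhbb (1.00 to 1.38), Fst (1.01 to 1.47) and Inhba (0.818 to 1.18) had ratios nearer to 1. With the experiment 1 libraries of these samples in the fit, Tgfb3 and Tgfbr2 no longer passed in RED versus CTL (3.09 with adjusted p = 0.083 and 1.59 with adjusted p = 0.058).

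In GREEN versus RED the samples of 0 of 9 genes were higher without overlap, beside 6.66% of all genes. In GREEN versus CTL 6 genes (Tgfb1, Tgfb2, Tgfb3, Tgfbr2, Tgfbr3 and Inhbb) were higher without overlap, beside 21.0% of all genes, and in RED versus CTL 3 genes (Tgfb1, Tgfb2 and Inhbb), beside 10.6%. Within RED, the samples kept nearly the same order for several genes: RED 4 and RED 5 were the highest for Tgfb1, Tgfb2, Tgfb3, Tgfbr2, Tgfbr3 and Inhbb, and RED 1 or RED 2 was the lowest. Within GREEN, samples 1 and 2 were the lowest for Tgfb2, Tgfb3, Tgfbr2, Tgfbr3 and Inhbb.

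Genes that hold TGF-beta latent or release it formed a further list. Of 17 such genes tested, 7 were higher and 0 lower in GREEN versus RED (median 0.67, against -0.02 for all genes). The counts were 14 higher and 2 lower in GREEN versus CTL (median 4.14, against 0.11). In RED versus CTL they were 11 higher and 0 lower (median 2.46, against 0.05). Of all genes, 9.68% were higher and 3.22% lower in GREEN versus RED, and 29.5% and 18.6% in GREEN versus CTL. In RED versus CTL they were 14.2% and 1.99%. These shares also stand beside the counts of the lists below. Itgb8, the beta subunit of an integrin that releases TGF-beta 1 and 3 from latency, averaged 32.7 ± 23.5 CPM in GREEN, 0.584 ± 0.309 in RED and 0.0215 ± 0.0221 in CTL (SD, n = 5 each). Its log2 fold change was 5.76 for GREEN versus RED (adjusted p = 1.4e-04), 10.11 for GREEN versus CTL (adjusted p = 6.3e-06) and 4.34 for RED versus CTL (adjusted p = 0.0044). Itgb6, the beta subunit of the other main releasing integrin, averaged 8.36 ± 5.20 CPM in GREEN and 0.406 ± 0.225 in RED (4.35, adjusted p = 3.4e-04). Thbs1, a matrix protein that frees the ligand from its propeptide, averaged 90.0 ± 82.5 CPM in GREEN, 9.74 ± 4.33 in RED and 0.288 ± 0.183 in CTL, and rose by 8.12 in GREEN versus CTL (adjusted p = 9.2e-06) and 5.04 in RED versus CTL (adjusted p = 4.5e-04).

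Matrix anchors belong to the same list. Fbn2, a fibrillin to which latent complexes bind, averaged 10.8 ± 5.87 CPM in GREEN and 0.485 ± 0.210 in RED (4.46, adjusted p = 4.7e-04). Ltbp3, a latent TGF-beta binding protein, averaged 38.2 ± 23.7 CPM in GREEN and 0.242 ± 0.151 in CTL (7.06, adjusted p = 1.6e-05), and Fbn1, another fibrillin, averaged 21.4 ± 14.4 CPM in RED and 0.702 ± 0.473 in CTL (4.86, adjusted p = 3.6e-04). The proteases Furin, which cleaves the ligand precursors, and Bmp1 were lower in GREEN versus CTL, with log2 fold changes of -1.04 and -0.84, and were named after their values were seen. With library totals the list had 9 higher in GREEN versus RED and 14 higher with 1 lower in GREEN versus CTL. That scaling called 4289 of all 16387 genes higher in GREEN versus RED and 10077 in GREEN versus CTL.

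**Figure D4:**
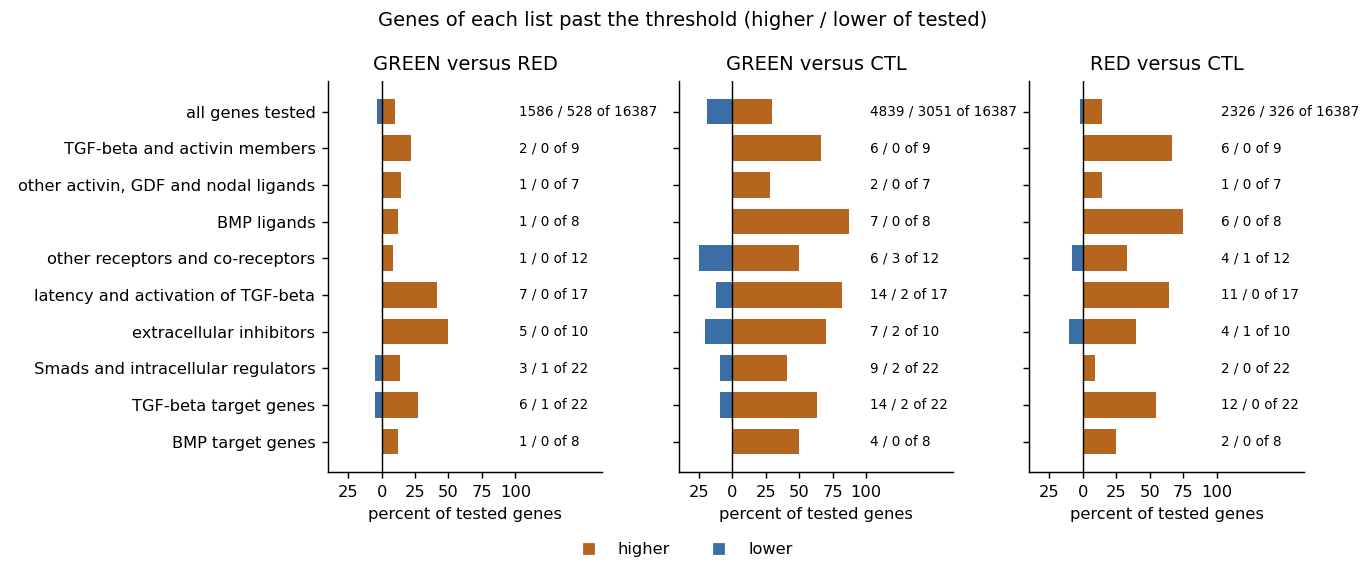
Percent of the tested genes of each pathway list that were higher (right of 0) or lower (left of 0) at an adjusted p under 0.05 in GREEN versus RED, GREEN versus CTL and RED versus CTL, with the numbers printed beside the bars and all genes in the top row. The lists of latency and activation (7 of 17) and extracellular inhibitors (5 of 10) have the longest bars of these pathway lists in GREEN versus RED, and BMP ligands in both comparisons with CTL (7 of 8 and 6 of 8).

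Among other ligands of the family, Inha, the alpha subunit that turns a beta subunit into inhibin, averaged 1.39 ± 1.16 CPM in GREEN and 0.0639 ± 0.0658 in RED, and had 0 counts in every CTL library. It rose by 4.39 in GREEN versus RED (adjusted p = 0.0022) and was 1 of 7 tested activin, GDF and nodal ligands called there (median -0.42, and 2 of 7 with library totals). Inha and Gdf11 (2.83, adjusted p = 0.0028) were called in GREEN versus CTL (2 of 7, median -0.26). In RED versus CTL Inha was called at an adjusted p that rounds to the threshold (0.05) and rested on 9 counts, so leaving out any of 12 samples ended it (1 of 7, median 0.14). Of 8 tested BMP ligands 1 was higher in GREEN versus RED (median 0.06), 7 in GREEN versus CTL (median 3.17) and 6 in RED versus CTL (median 3.56), and none was lower. Bmp2 averaged 43.6 ± 36.4 CPM in RED and 2.67 ± 1.34 in CTL (4.02, adjusted p = 5.7e-04). Gdf2, which encodes BMP9, averaged 46.3 ± 25.9 CPM in GREEN, 39.9 ± 39.5 in RED and 2.64 ± 0.951 in CTL. It rose by 3.90 in GREEN versus CTL (adjusted p = 1.1e-04) and by 3.70 in RED versus CTL (adjusted p = 5.7e-04). Gdf6 rose by 5.73 in GREEN versus CTL and 4.61 in RED versus CTL, and Bmp6 by 4.05 in GREEN versus CTL. The BMP ligand called in GREEN versus RED was Bmp7 (1.51, adjusted p = 0.032), a call that ended when any of GREEN 3, 4 and 5 and RED 1, 3, 4 and 5 was left out.

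Of 12 other receptors and co-receptors tested, 1 was higher in GREEN versus RED (median 0.16), beside 9.68% of all genes. In GREEN versus CTL 6 were higher and 3 lower (median 0.30), beside 29.5% and 18.6%. In RED versus CTL 4 were higher and 1 lower (median 0.07), beside 14.2% and 1.99%. Eng, or endoglin, a co-receptor of endothelial cells, averaged 97.0 ± 28.7 CPM in GREEN, 118.3 ± 81.1 in RED and 8.79 ± 4.52 in CTL. It rose by 3.48 in GREEN versus CTL (adjusted p = 1.6e-04) and by 3.77 in RED versus CTL (adjusted p = 4.9e-04). Acvrl1, the endothelial type I receptor ALK1, rose by 3.44 in GREEN versus CTL and 3.14 in RED versus CTL, and Rgma, a BMP co-receptor, by 5.84 and 3.75. The activin type II receptor Acvr2b was lower in both, at 2.92 CPM in GREEN and 2.54 in RED against 6.25 in CTL (-1.08, adjusted p = 0.0079, and -1.36, adjusted p = 0.0052). In GREEN versus CTL the other lower genes were Acvr2a (-0.30) and the hemojuvelin gene Hfe2 (-1.24), and Bmpr2 was higher in RED versus CTL (0.48, adjusted p = 0.019, lost with any of 6 samples left out). The Acvr2a call was lost without GREEN 1, GREEN 4 or GREEN 5. Acvr2a, Acvr2b, Hfe2 and Bmpr2 were named after their values were seen. With library totals no gene of this list was lower, and 9 were higher in GREEN versus CTL and 4 in GREEN versus RED. Of all 16387 genes, 10077 and 4289 were higher at that scaling, in the same order. The receptor called in GREEN versus RED was Bmpr1a (0.66, adjusted p = 0.021), which lost its call without GREEN 3, GREEN 4, GREEN 5, RED 1 or RED 5.

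Extracellular inhibitors also differed. Of 10 tested, 5 were higher and 0 lower in GREEN versus RED (median 1.13), 7 higher and 2 lower in GREEN versus CTL (median 3.57) and 4 higher and 1 lower in RED versus CTL (median 1.58). Fstl3, a relative of follistatin that binds activin, averaged 7.34 ± 5.20 CPM in GREEN, 0.611 ± 0.429 in RED and 0.108 ± 0.101 in CTL. Its log2 fold change was 3.60 for GREEN versus RED (adjusted p = 0.0094, a call that ended without GREEN 3) and 5.94 for GREEN versus CTL (adjusted p = 1.9e-04). Bambi, a decoy that resembles a TGF-beta receptor, averaged 16.6 ± 10.6 CPM in GREEN and 3.20 ± 1.49 in RED (2.26, adjusted p = 0.0032). Nbl1, a BMP antagonist, rose by 3.03 in GREEN versus RED (adjusted p = 0.0072). It was also called in both comparisons with CTL, where the CTL libraries held 2 counts in all, at 2.86 ± 1.56 CPM in GREEN and 0.339 ± 0.277 in RED. The small matrix proteoglycans Bgn and Dcn rose by 3.85 and 3.68 in RED versus CTL, and the protease Htra1 by 5.54 in GREEN versus CTL. Htra1 (1.99) and Vasn (1.2) completed the 5 genes of GREEN versus RED. The Htra1 call was lost without GREEN 3, GREEN 4, GREEN 5, RED 1 or RED 3, and the Vasn call without GREEN 3 or RED 1. Chrd, which encodes the BMP antagonist chordin, was lower in GREEN versus CTL (-0.90, adjusted p = 0.05, lost with any of 10 samples left out). The values of Htra1 and Vasn in GREEN versus RED, and that of Chrd, were chosen after they were seen.

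SMAD genes and genes of their intracellular regulators formed a list of 22 tested. Of these, 3 were higher and 1 lower in GREEN versus RED (median 0.27), 9 higher and 2 lower in GREEN versus CTL (median 0.37) and 2 higher and 0 lower in RED versus CTL (median 0.10). The shares of all genes called higher were 9.68%, 29.5% and 14.2%, in the same order. With library totals 11 were higher and 0 lower in GREEN versus RED, and 19 and 0 in GREEN versus CTL. That scaling called 4289 of all 16387 genes higher in GREEN versus RED and 10077 in GREEN versus CTL. Pmepa1, a TGF-beta-induced brake on SMAD signalling, averaged 11.3 ± 5.43 CPM in GREEN, 3.81 ± 2.16 in RED and 0.320 ± 0.174 in CTL. Its log2 fold change was 4.99 in GREEN versus CTL (adjusted p = 2.4e-05) and 3.47 in RED versus CTL (adjusted p = 5.7e-04), while the call in GREEN versus RED (1.51, adjusted p = 0.044) ended with any of 10 samples left out. Smad6, an inhibitory SMAD, rose by 2.52 in GREEN versus CTL and 1.89 in RED versus CTL. The co-repressor Tgif2 rose by 2.29 in GREEN versus RED (adjusted p = 0.0057) and 3.49 in GREEN versus CTL. Tgif1 rose by 0.83 in GREEN versus RED (adjusted p = 0.032, lost with any of 8 samples left out). Wwp1, a ubiquitin ligase, was lower there (-0.39, adjusted p = 0.046, lost with any of 8 samples left out). Lower in GREEN versus CTL were Wwp1 (-0.62) and Ppm1a (-0.58). Both were named after their values were seen.

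Of 22 genes known as TGF-beta targets, 6 were higher and 1 lower in GREEN versus RED (median 0.13), 14 higher and 2 lower in GREEN versus CTL (median 2.56) and 12 higher and 0 lower in RED versus CTL (median 2.21). Ccn2, a matricellular protein gene that is also a target of YAP, averaged 193.5 ± 138.5 CPM in GREEN, 8.13 ± 7.03 in RED and 0.278 ± 0.234 in CTL. Its log2 fold change was 4.55 for GREEN versus RED (adjusted p = 0.0034) and 9.27 for GREEN versus CTL (adjusted p = 3.1e-05). The collagen gene Col1a1 averaged 229.9 ± 76.1 CPM in GREEN and 37.9 ± 20.6 in RED (2.59, adjusted p = 0.0012). Plod2, a collagen-modifying enzyme, rose by 2.33 in GREEN versus RED (adjusted p = 0.012, a call that ended without GREEN 3), by 7.26 in GREEN versus CTL and by 4.93 in RED versus CTL. Acta2, smooth muscle actin, rose by 5.11 in RED versus CTL, to 4.00 ± 7.46 CPM in RED against 0.0550 ± 0.0528 in CTL. The lower gene of GREEN versus RED was Zeb1 (-0.47, adjusted p = 0.041, lost with any of 7 samples left out), and those of GREEN versus CTL were Bhlhe40 (-0.62, lost with any of 5) and Fn1 (-0.96, lost with any of 3), the fibronectin gene, which hepatocytes express at a high level. These 3 were named after their values were seen, and with library totals no gene of this list was lower. Of 8 BMP targets, 1 was higher in GREEN versus RED, namely Id1 (2.75, adjusted p = 0.025, lost without GREEN 3, GREEN 4, GREEN 5, RED 1 or RED 5). The BMP targets called in GREEN versus CTL were 4, namely Id1 (4.4), Id4 (2.65), Atoh8 (1.51) and Id3 (1.51, named after its value was seen). In RED versus CTL they were 2, Id4 (3.36) and Id3 (1.5). The medians of this list were -0.07 in GREEN versus RED, 1.07 in GREEN versus CTL and 0.95 in RED versus CTL.

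Leaving out GREEN 3 or GREEN 4 lowered several of these counts in GREEN versus RED. Latency and activation genes called higher numbered 6 without either sample. Extracellular inhibitors numbered 2 without GREEN 3 and 4 without GREEN 4, SMAD genes and regulators 1 without either, and TGF-beta targets 3 and 4. The single calls among BMP ligands, other receptors and BMP targets ended without either sample. Itgb8, Itgb6, Fbn2, Inha, Bambi, Tgif2, Ccn2 and Col1a1 kept their calls in GREEN versus RED with any 1 sample left out. In GREEN versus CTL the counts without GREEN 3 and without GREEN 4 were 14 and 14 for latency and activation. They were 7 and 6 for BMP ligands, 6 and 8 for SMAD genes and regulators and 14 and 15 for TGF-beta targets. Other receptors were 5 higher and 3 lower without GREEN 3, and 5 and 2 without GREEN 4. Extracellular inhibitors were 7 higher and 1 lower without either, and 0 TGF-beta targets were lower. In RED versus CTL, TGF-beta targets called higher numbered 11 without GREEN 3, and SMAD genes and regulators 3 without GREEN 4.

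Markers of other liver cells moved with these genes. The stellate list shares Col1a1 and Col3a1 with the TGF-beta targets and Dcn with the extracellular inhibitors, so those counts are not separate. In RED versus CTL 12 of 12 stellate cell and fibroblast markers, 12 of 12 endothelial markers and 12 of 12 macrophage markers were higher, with medians of 3.79, 3.80 and 3.24. The summed level of the stellate list was 333.4 to 1952 CPM in RED and 41.0 to 90.7 CPM in CTL. Endothelial markers summed to 422.7 to 2301 CPM in RED and 56.7 to 159.1 in CTL, and macrophage markers to 111.3 to 1469 CPM in RED and 34.8 to 97.0 in CTL. The libraries RED 4 and RED 5, which were high for Tgfb1, Tgfbr2, Tgfbr3 and Inhbb, were also the highest of the RED samples in the stellate (967.3 and 1952 CPM), endothelial (1554 and 2301 CPM) and macrophage lists (789.5 and 1469 CPM). Of the bile duct list 1 of 12 was called in that comparison, Krt19 (adjusted p = 0.0040), at 0.488 ± 0.247 CPM in RED and 1 count over the CTL libraries. The part of these cells in the levels of the 9 genes was not tested, and in such bulk samples more cells of a type and more RNA per cell cannot be told apart.

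In GREEN versus RED 10 of 12 bile duct markers were higher (median 6.65), or 9 without GREEN 3 or GREEN 4. Their summed level was 563.4 to 8472 CPM in GREEN, against 101.1 to 437.0 CPM in RED and 47.4 to 315.0 in CTL, where Cftr had 0 counts in every library. Cldn4, a tight junction gene, averaged 42.5 ± 37.4 CPM in GREEN and 0.162 ± 0.219 in RED (7.92, adjusted p = 9.4e-05), and Epcam 77.8 ± 58.7 and 0.445 ± 0.250 (7.33, adjusted p = 3.5e-04). Tgfb2 and Tgfb3 were lowest among the GREEN samples in GREEN 1 and GREEN 2, which also had the lowest bile duct sums (563.4 and 786.4 CPM), and highest in GREEN 4, which had the highest (8472 CPM). Mesothelial sums had the same extremes (12.4 and 18.6 CPM in GREEN 1 and GREEN 2, 65.9 CPM in GREEN 4), and stellate sums were lowest in GREEN 1 and GREEN 2 as well (930.1 and 808.5 CPM). Mesothelial markers were higher too (4 of 6, median 2.19), at 12.4 to 65.9 CPM in GREEN against 3.24 to 5.56 CPM in RED and 0.676 to 2.99 CPM in CTL, where Upk3b and Upk1b had 0 counts. Of the stellate list 3 of 12 were higher (Col1a1, Col3a1 and Lum), and without GREEN 3 or GREEN 4 this was 1, with Lum lost with any of 9 samples left out and Col3a1 with any of 5. The stellate list had sums of 808.5 to 2476 CPM in GREEN. The endothelial list had a median of -0.87 in GREEN versus RED (-0.43 with library totals), with sums of 376.2 to 875.1 CPM in GREEN. Of the macrophage list, 4 of 12 were lower, with sums of 133.6 to 502.6 CPM in GREEN. With library totals, or without GREEN 3 or GREEN 4, none was. Each endothelial marker was higher in GREEN than in CTL (12 of 12, median 2.93). So were 12 of 12 stellate (median 4.51), 10 of 12 macrophage (2.53), 12 of 12 bile duct (8.23) and 6 of 6 mesothelial markers (7.99). Of all genes, 29.5% were higher in that comparison. Macrophage markers numbered 8 without GREEN 3 and 9 without GREEN 4, bile duct markers 11 and mesothelial markers 5 without either. Of the hepatocyte list 11 of 12 were lower in GREEN versus CTL (median -1.41), or 6 of 12 with library totals and 7 of 12 without GREEN 3 or GREEN 4. Its sums were 33850 to 75100 CPM in GREEN, 69070 to 112200 in RED and 102300 to 168200 in CTL. Their part in the higher Tgfb2 and Tgfb3 levels of GREEN was not tested.

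**Figure D5:**
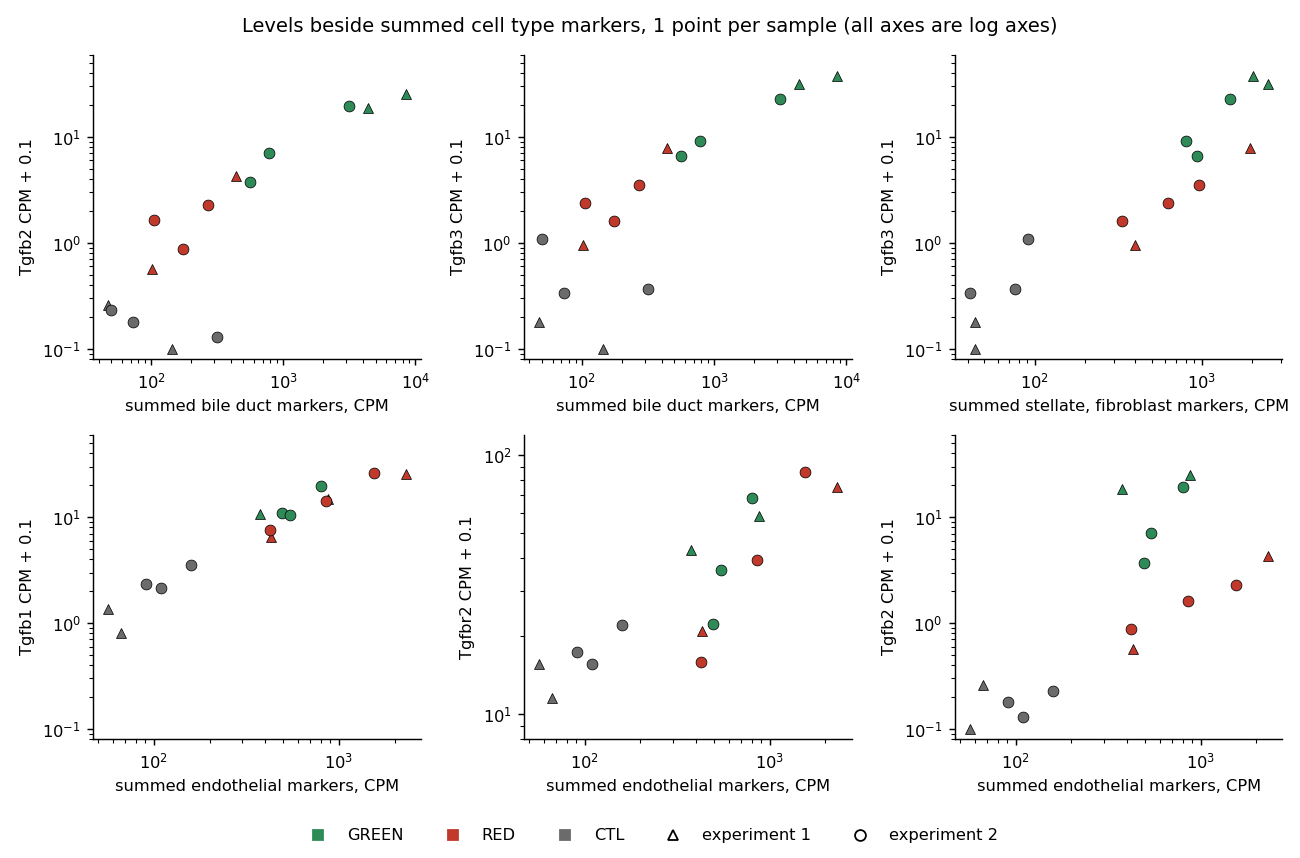
Levels of Tgfb1, Tgfb2, Tgfb3 and Tgfbr2 (CPM plus 0.1) against the summed CPM of 12 bile duct, 12 stellate cell and fibroblast or 12 endothelial markers, all on log axes, 1 point per sample, coloured by group and shaped by experiment. GREEN samples hold the highest Tgfb2 and Tgfb3, and their bile duct sums (563.4 to 8472 CPM) do not overlap those of RED (101.1 to 437.0 CPM). At endothelial sums of 376.2 to 875.1 CPM the GREEN samples lie above RED 1, RED 2 and RED 3 for Tgfb2. The part of either cell type in these levels was not tested.

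The smaller lists of blood cells had low sums in each group, but some of their genes were called higher against CTL. Neutrophil genes numbered 3 of 5 tested in both comparisons, with S100a9 at 4.53 in RED and 5.47 in GREEN. The lymphocyte and platelet lists had 1 of 4 tested each, Ptprc (3.18 and 2.79) and Pf4 (3.5 and 3.42). Ptprc is not confined to lymphocytes. It alone was at 6.82 to 18.9 CPM in GREEN, 6.28 to 36.0 in RED and 0.798 to 3.005 in CTL. Of all genes, 14.2% were higher in RED versus CTL and 29.5% in GREEN versus CTL. Cd4 was lower (-2.2, lost with any of 10 samples left out, and -2.42). Summed platelet and megakaryocyte markers were 3.64 to 4.87 CPM in GREEN, 3.06 to 7.66 in RED and 1.10 to 2.90 in CTL, where Gp1bb and Treml1 had 0 counts. Neutrophil markers summed to 6.88 to 36.5 CPM in GREEN, 5.65 to 24.6 in RED and 0.433 to 3.27 in CTL, and lymphocyte markers to 9.64 to 20.7 CPM in GREEN, 9.06 to 38.0 in RED and 2.48 to 6.91 in CTL, where Cd79a, Nkg7 and Ncr1 had 0 counts. Platelets are known as a store of TGF-beta 1, and Pf4, a platelet gene, was at 0.531 to 1.52 CPM in GREEN, 0.431 to 2.49 in RED and 0 to 0.156 in CTL.

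The genes whose levels over the 15 libraries were most like each member were ranked by Pearson r of log2 CPM after each experiment's mean was removed. The libraries fall into 3 groups, so this likeness holds the group differences and is given as a description. Tgfb1 was most like B3gnt3 (0.996), Elk3 (0.994) and Dysf (0.993). Tgfb2 was most like Igf1r (0.991), Pdgfb (0.990) and Myof (0.988), and Tgfb3 was most like Adgrg6 (0.992), Sfxn3 (0.991) and Plat (0.991). Tgfbr2 was most like Gnai2 (0.963), Irf8 (0.959) and Strn4 (0.958), Tgfbr3 like Plscr4 (0.989), Kif21b (0.986) and Crtap (0.986), and Tgfbr1 like Katnbl1 (0.924), Arfip1 (0.919) and Snx6 (0.907). Inhbb was most like Pik3cd (0.987), Wdfy4 (0.987) and Rftn1 (0.986), whereas the values of Inhba (Slc39a5 0.878, Bean1 0.856, Pik3r1 0.855) and Fst (Arsa 0.942, Nox4 0.915, Tpmt 0.913) were lower. Among the members themselves Tgfb2 and Tgfb3 were the closest pair (0.974), and Inhba had values from -0.384 to -0.132 with the 7 genes other than Fst.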

How the data were processed

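RNA-seq of 15 samples (5 GREEN, 5 RED, 5 CTL) was used as deposited. Per the submitters' processing notes, the authors used kallisto 0.43.1 and GRCm38. The deposited values are estimated counts per gene, not normalized. Per the labels' protocols, libraries were made from 150 ng of total RNA with a stranded poly(A) kit in experiment 1 and a ribosomal-depletion kit in experiment 2. The sources used here do not give the RNA extraction, the annotation release or the strand setting. Tgfbr3 shares exon sequence with an annotated gene on the same strand, and Tgfb2, Tgfb3 and Fst with antisense genes, none of them listed in the tables. With the strand setting of the counting not stated, reads of a gene and its partner cannot be told apart. CTL 5, RED 2, RED 3 and RED 4 had a library in each experiment, and the experiment 2 library entered the tests.

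Symbols and positions came from GENCODE on GRCm38 (99.0% of identifiers matched), and promoters from RefSeq, which held stretches for 6 of the 9 genes. Estimated counts were rounded, filtered with filterByExpr and scaled by TMM, and edgeR 4.0.16 (R 4.3.3) fitted group and experiment over the 15 libraries. Standard errors were the log2 fold change divided by the root of F. DESeq2 1.42.0, limma 3.58.1, library totals, DESeq2 size factors, no filter, each experiment alone, the experiment 1 libraries, a sample left out, replicate blocks and the third group left out were alternatives. A term for Y-linked expression (Ddx3y above 10 CPM) was chosen after seeing the data. A count of 0 was taken to allow 3 counts. Intervals and floors cover counting error only.

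The labels call the samples biological replicates but name no animal, so p-values measure the spread between these samples. Title numbers were not taken to pair samples across groups (correlations of deviations -0.223 to 0.578 across genes), nor were the library code numbers: GREEN 1 and RED 2 had 0.577, GREEN 2 and RED 3 0.398, GREEN 3 and RED 4 0.78, GREEN 4 and RED 4 0.435, and GREEN 5 and RED 5 -0.223, below the 0.1 asked of every pair. The 9 genes, 8 pathway lists and 9 marker lists were chosen with earlier results of these data known. Besides the 9 genes, the text names up to 3 called genes of largest fold change per list and comparison, the 3 genes most like each member, and markers at 0. Some genes of these lists are not reported here by name.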

Additional observations from a re-analysis of the deposited data

Results flagged for a closer look

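Among 27 sets of 5 values (9 genes in 3 groups), 2 held a sample far from the other 4 by Dixon's criterion (a gap of more than 0.71 of the range). Chance alone gives about 1 such set in 20. Tgfb3 in CTL 2 was at 0.993 CPM, against 0 to 0.266 CPM in the other CTL samples, a gap of 0.732 of the range. CTL 2 was also the highest CTL sample for Tgfb1 (3.42 CPM), Tgfbr2 (21.9 CPM), Tgfbr3 (10.0 CPM) and Inhbb (0.366 CPM), and it had the highest summed endothelial markers (159.1 CPM) and stellate cell markers (90.7 CPM) of the CTL samples. Inhba in CTL 3 was at 65.9 CPM, against 17.4 to 30.5 CPM in the other CTL samples, a gap of 0.73 of the range. CTL 3 had the lowest Fst of all samples (1.34 CPM).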

How the results depend on the processing

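Tgfb1, Tgfb2 and Inhbb in both comparisons with CTL, and Tgfb3 and Tgfbr3 in GREEN versus CTL, kept their direction and call under each of 26 alternatives. The number of members past the threshold was within 1.5 times of the reported one in 26 of 26 alternatives for GREEN versus CTL, 25 of 26 for RED versus CTL and 19 of 27 for GREEN versus RED. Experiment 2 alone gave 3 for RED versus CTL and 0 for GREEN versus RED, with 9 libraries in place of 15. Of all genes, 6.73% and 0.452% were called higher there. Leaving out a sample gave 1 to 2 for GREEN versus RED, 5 to 7 for GREEN versus CTL and 4 to 6 for RED versus CTL. The shares of all genes called with a sample left out or with a replicate block are not given here. Those counts therefore do not compare the members with other genes.

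A replicate block by title number gave 2, 6 and 5 members for GREEN versus RED, GREEN versus CTL and RED versus CTL, the last without Tgfbr2 (1.27, adjusted p = 0.069). A replicate block by library code number (GREEN versus RED, 3 residual degrees of freedom) gave 2, with Tgfb2 at 2.40 (adjusted p = 0.0032) and Tgfb3 at 2.19 (adjusted p = 0.0019). Under it Tgfbr1 was -0.00 and Inhbb -0.08.

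The reversals were of values that had not passed. In RED versus CTL, Inhba was -0.05 in experiment 2 alone, -0.03, -0.18 and -0.18 without CTL 2, CTL 4 and RED 1, -0.00 with the Y-linked term and -0.02 with GREEN left out of the fit, and Fst was -0.39 in experiment 2 alone and -0.09, -0.24 and -0.13 without CTL 2, CTL 3 and RED 1. With a sample left out these values ran up to 0.32 for Inhba (without CTL 3) and 0.48 for Fst (without CTL 4). In GREEN versus RED, Tgfb1 was 0.17 with library totals and 0.21 without RED 5 (down to -0.55 without RED 1). Tgfbr2 was 0.40 with library totals, 0.13 with limma-voom and in experiment 1 alone, 0.06 with the title block, 0.05 with the Y-linked term, and 0.12, 0.02, 0.21 and 0.26 without GREEN 1, GREEN 2, RED 4 and RED 5 (down to -0.35 without RED 1). Tgfbr1 was -0.12 and -0.06 without GREEN 3 and RED 1 (up to 0.18 without GREEN 1), and Tgfbr3 -0.08 without RED 1 (up to 0.62 without RED 5). Inhbb was -0.09 in experiment 2 alone, -0.17 and -0.08 without GREEN 3 and GREEN 4, and -0.11, -0.06 and -0.02 without RED 1, RED 2 and RED 3 (up to 0.52 without RED 4). Inhba in GREEN versus CTL was 0.27 with library totals. With the Y-linked term Tgfbr1 passed in GREEN versus CTL (0.43, adjusted p = 0.024). The cause was not tested. Depth limits the CTL levels of Tgfb2, Tgfb3 and Inhbb, with 13, 58 and 24 counts over 5 libraries.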

Other observations

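The ratio of Inhba to Fst per kilobase, activin subunit over its trap, was 1.53 to 4.79 in GREEN, 1.36 to 3.52 in RED and 0.82 to 35.4 in CTL. The highest value belonged to CTL 3, in which Inhba was the highest and Fst the lowest of the CTL samples, and the next highest CTL value was 5.02 in CTL 2. The GREEN samples with high Ddx3y were GREEN 3 and GREEN 4, which carry 1 code number (4). Their deviations from a fit of group and experiment correlated at 0.399 across 16387 genes, the highest of the 10 pairs of GREEN samples. Of the 5 pairs of a GREEN and a RED sample with 1 code number, 4 were alike in Ddx3y: it was low in GREEN 1 and RED 2 and in GREEN 2 and RED 3, and high in GREEN 3, GREEN 4 and RED 4. In the fifth pair it was 0.0922 CPM in GREEN 5 and 68.6 CPM in RED 5.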
